A study of Mus musculus with 5 samples.

Results

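Tmprss13, Clmp, Cdh22, Igsf8 and Tmem37 encode proteins of the cell surface whose mRNAs were higher in tibialis anterior (TA) muscle of mice labelled skmNrip1-/- than in WT control muscle. They are described here with 5 related surface genes for contrast, Cdh15, Cdh13, Ncam1, Jam2 and Jam3. These 10 genes were picked by name, with their values in this comparison already known, from the 17015 genes of the authors' table, so no p-value is given for them, and their differences and calls are descriptions only. TA is a fast-twitch muscle of the lower leg. WT control muscle is represented by 3 libraries and skmNrip1-/- muscle by 2, all from sedentary male mice 8 weeks of age. The WT control mice were Cre-negative littermates carrying the same floxed Nrip1 allele (Nrip1 fl/fl). In skmNrip1-/- mice, Cre driven by the myogenin promoter, which is active in skeletal muscle, deletes exon 4 of Nrip1, the exon that holds the whole reading frame of the corepressor RIP140. The floxed line was C57BL/6J and the Cre line C57BL/6JN. The study states 3 mice per group, and only the 5 libraries of the table were analysed here.

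Adhesion molecules hold cells to each other and to their surroundings. Cadherins bind cadherins on the next cell in a calcium-dependent way and are tied to actin through catenins inside the cell, whereas adhesion molecules of the immunoglobulin superfamily bind without calcium. In muscle, such proteins are known from the fusion of myoblasts, from satellite cells lying against the fibre, from the contact of nerve and fibre, and from the vessels between fibres. Membrane-anchored serine proteases cut proteins at the cell surface and are known mainly from epithelia. In a whole muscle, fewer cells of a type and less RNA per cell cannot be told apart.

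Expression is given as FPKM, fragments per kilobase of transcript after scaling for library size. The FPKM summed to 969144 to 1288040 per library, and every library had the same median ratio to the geometric mean of each gene, so the values were already brought to 1 scale when deposited. Transcripts of mitochondrial DNA made up 45.4% to 50.7% of the summed FPKM in WT control muscle and 58.6% to 60.9% in the libraries labelled skmNrip1-/-. The targeted gene Nrip1 (ENSMUSG00000048490) had 4.64, 7.69 and 6.55 FPKM across the WT control libraries, against 25.3 and 22.5 FPKM in the libraries labelled skmNrip1-/-. This was a rise of 1.94 on the log2 scale (SE 0.21, limma with Benjamini-Hochberg adjustment, adjusted p = 0.0261), the opposite of what a knockout label says. Exon 4 has no value of its own in a table of whole genes, so every direction below rests on the labels. The study describes the line as deficient in RIP140. It gives Nrip1 expression and a RIP140 western blot for gastrocnemius and heart of this line, not for these TA libraries. Fast muscle markers summed to between 83970.4 and 110835 FPKM in WT control muscle and between 76279 and 78585 in the libraries labelled skmNrip1-/-, with Tnnt3 and Acta1 the most abundant.

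Of the 10 genes, 5 were higher in the libraries labelled skmNrip1-/- past the call used for the whole table, 0 were lower past it, and 5 were not called. The call was an adjusted p of 0.05 or less in limma and a fold of at least 1.2. Of the 12148 genes tested, 45 were called higher (0.37%) and 10 lower (0.0823%). Since the genes were picked from this comparison, nothing is read from their count against that share. Libraries of the groups did not overlap for 8 of the 10 genes, 6 with higher values in both libraries labelled skmNrip1-/- and 2 with lower values, where 15.8% of all tested genes were separated upward and 14.4% downward. The median log2 difference of all tested genes was 0.00 after rounding, and the median of the absolute differences was 0.15.

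Tmprss13 encodes a type II transmembrane serine protease. It was the 1 gene of the 10 that went from silent to expressed, with silent meaning under 0.1 FPKM in every WT control library and expressed meaning 1 FPKM or more in both others. Its FPKM were 0.0621, 0.0439 and 0.0275 in the WT control libraries (replicates 1, 2 and 3, the order used throughout) and 9.42 and 9.48 in the libraries labelled skmNrip1-/-. Both of the latter lay far above every WT control library and within 1.01-fold of each other. The group means were 0.0445 ± 0.0173 FPKM (SD, n = 3) and 9.45 ± 0.0377 FPKM (SD, n = 2), a 213-fold ratio of means. On the log2(FPKM + 0.1) scale, which understates the change of a gene this low, the difference was 6.05 (SE 0.24). It ranked 3 among the tested genes by log2 difference. In percentiles of the whole table, the gene moved from 5.81 in WT control muscle to 72.4 in the libraries labelled skmNrip1-/-. Of the 17015 genes of the table, 2 had the silent-to-expressed pattern (0.0118%), Tmprss13 and the processed pseudogene Pgam1-ps2, and 1 had the reverse pattern (0.00588%), the pseudogene Gm2274. Tmprss13 (ENSMUSG00000037129) lies on the plus strand of chromosome 9, 45319100 to 45347581 on GRCm38, with 1 annotated transcript of 3245 nucleotides in 13 exons.

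**Figure D1:**
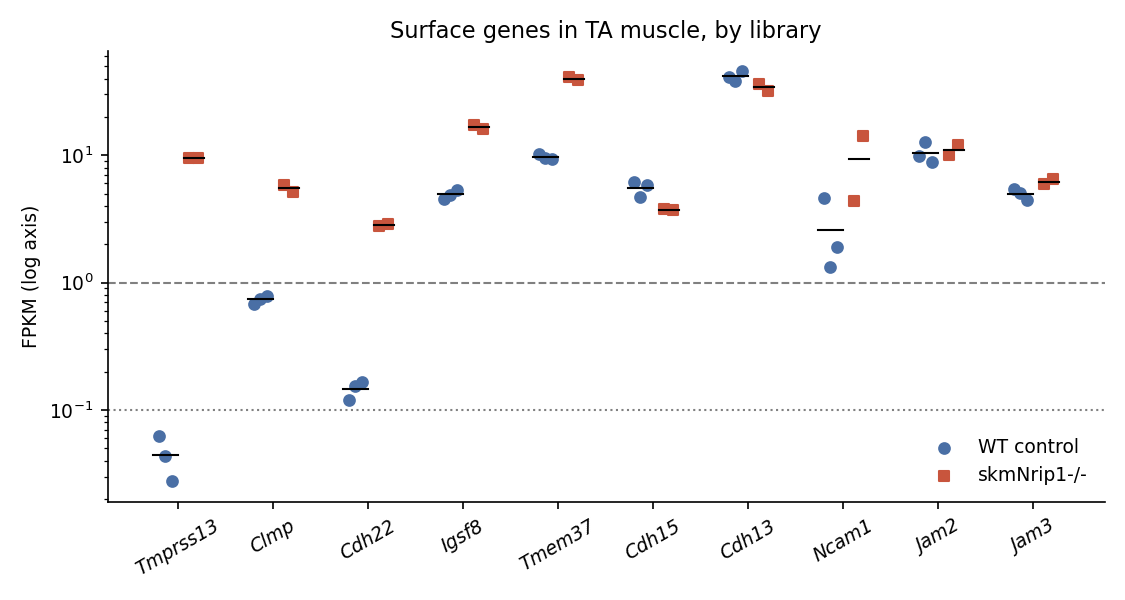
FPKM on a log axis of the 10 genes in each library, with circles for the 3 WT control libraries, squares for the 2 labelled skmNrip1-/- and bars for the group means. The dotted line marks 0.1 FPKM and the dashed line 1 FPKM. Tmprss13 crosses both lines, Cdh22 and Clmp cross only the dashed line, and the other 7 genes stay at 1 FPKM or more in every library.

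Because Tmprss13 has a single annotated transcript, its FPKM could be turned back into fragments. Low FPKM of genes with 1 transcript, multiplied by their length less 330 nucleotides, fell on whole multiples of a fixed step in 99.2% to 100% of 223 to 262 values per library, within 0.15 of a step, where evenly spread values would do so in 30%. The step and the subtracted length were fitted on these same values. Relative to WT control replicate 1, the steps gave a library size of 0.81 to 1.1 for the other libraries. Since the FPKM were already brought to 1 scale, this is the size used in that scaling and can differ from sequencing depth. On this basis, Tmprss13 had about 9, 7 and 4 fragments in the WT control libraries. The 95% Poisson intervals were 4.12 to 17.1, 2.81 to 14.4 and 1.09 to 10.2 fragments, so the lowest WT control value rested on only a few fragments, and the 3 intervals overlapped. In the libraries labelled skmNrip1-/-, the same estimate gave 1113 and 1334 fragments, with intervals of 1049 to 1180 and 1263 to 1408. These intervals cover counting error only. The WT control level was thus low but above 0 in every library.

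**Figure D2:**
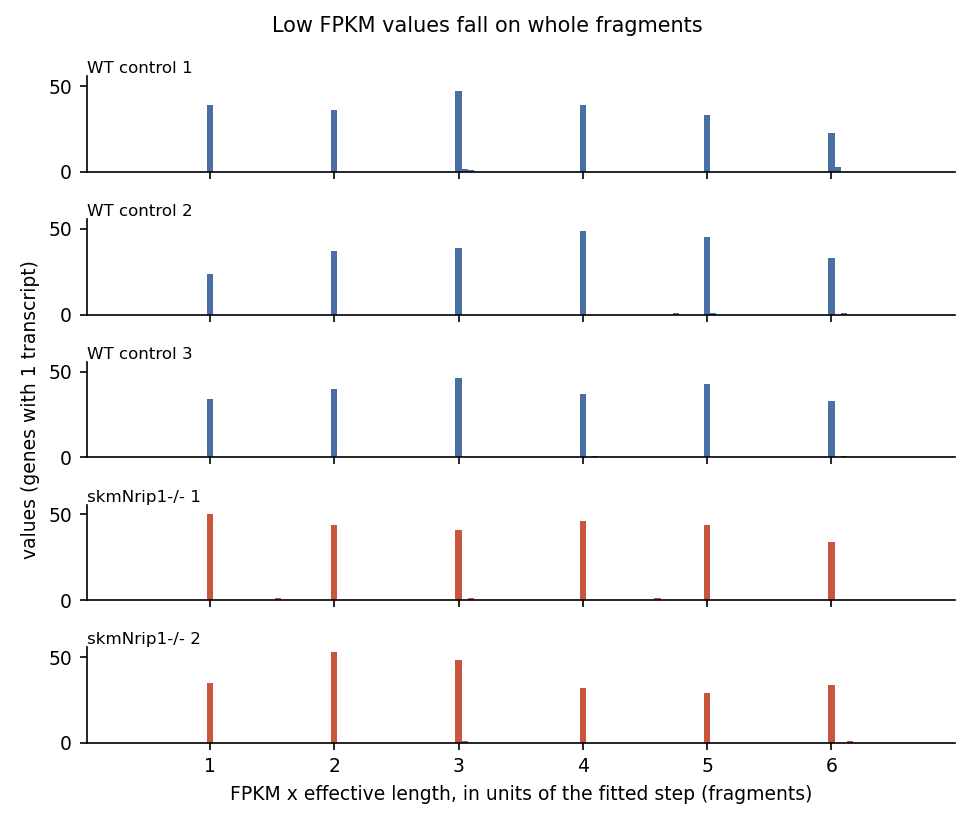
Histograms of low FPKM of single-transcript genes, multiplied by transcript length less 330 nucleotides and divided by the fitted step, for each of the 5 libraries. The horizontal axis is in fragments and the vertical axis counts values. The values stand at whole numbers of fragments in all 5 libraries, with 99.2% to 100% of them within 0.15.

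Cdh22, a classical cadherin of type II, lay just outside the silent class. It had 0.119, 0.154 and 0.166 FPKM in WT control muscle and 2.80 and 2.87 FPKM in the libraries labelled skmNrip1-/-. Every WT control library was above the limit of 0.1 FPKM by a small margin, and the groups were far apart. The means were 0.146 ± 0.0243 FPKM (SD, n = 3) and 2.83 ± 0.0492 FPKM (SD, n = 2), a 19.3-fold ratio. The log2 difference was 3.58 (SE 0.26). Even so, Cdh22 was the least abundant of the 10 genes in the libraries labelled skmNrip1-/-, at percentile 52.0 of the table. It lies on the minus strand of chromosome 2, 165111507 to 165234853 (ENSMUSG00000053166). With a limit for silence of 0.5 FPKM in place of 0.1, Cdh22 joined Tmprss13 among 11 genes of the table.

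Clmp encodes an adhesion molecule of the immunoglobulin superfamily, in the CTX group with the coxsackievirus and adenovirus receptor, and is found at tight junctions. Its FPKM were 0.679, 0.750 and 0.785 in WT control muscle and 5.85 and 5.11 in the libraries labelled skmNrip1-/-. It was thus measurable in every library and well separated between the groups. The means of 0.738 ± 0.0540 FPKM (SD, n = 3) and 5.48 ± 0.523 FPKM (SD, n = 2) gave a 7.43-fold ratio and a log2 difference of 2.73 (SE 0.16). The gene lies on the plus strand of chromosome 9, 40685962 to 40785319 (ENSMUSG00000032024).

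Tmprss13 and Cdh22 reached the tested table, which required a mean of 0.5 FPKM over all 5 libraries, only through the libraries in which they were high. All 10 genes passed that filter, and the 8 others would also have passed it on WT control values alone.

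Igsf8 and Tmem37 were already expressed in WT control muscle and were raised from there. Igsf8, also named EWI-2, is an immunoglobulin superfamily protein that binds the tetraspanins Cd9 and Cd81. It had 4.49, 4.91 and 5.37 FPKM in WT control muscle and 17.4 and 16.0 FPKM in the libraries labelled skmNrip1-/-, without overlap. The means were 4.93 ± 0.440 FPKM (SD, n = 3) and 16.7 ± 0.951 FPKM (SD, n = 2), a 3.39-fold ratio, and the log2 difference was 1.74 (SE 0.12). Among the 5 called genes this was the smallest difference. Igsf8 (ENSMUSG00000038034) lies on the plus strand of chromosome 1, 172261641 to 172319841. Whether the authors' counting used strand is not given in the sources used here, so reads from genes that overlap on opposite strands cannot be told apart.

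Tmem37 encodes a small membrane protein related to the gamma subunits of voltage-gated calcium channels. Its FPKM were 10.2, 9.55 and 9.33 in WT control muscle and 41.0 and 38.6 in the libraries labelled skmNrip1-/-. All libraries of a group lay within 1.098-fold of each other. The means were 9.71 ± 0.479 FPKM (SD, n = 3) and 39.8 ± 1.64 FPKM (SD, n = 2), a 4.10-fold ratio and a log2 difference of 2.02 (SE 0.10). In fragments, estimated as for Tmprss13, the WT control libraries held about 501, 514 and 457 and the others 1628 and 1830. Tmem37 stood first of the 10 genes in the libraries labelled skmNrip1-/- and at place 3 in WT control muscle. It lies on the minus strand of chromosome 1, 120067377 to 120074074 (ENSMUSG00000050777).

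The promoters of Cdh22, Igsf8 and Tmem37, the called genes with an entry in the RefSeq promoter table (GRCm38.p6), are shown with that of Cdh15 for contrast. Of the 10 genes, 4 had an entry. Each sequence is the 250 bases before the start that RefSeq gives for the gene, read 5′ to 3′ on the gene's strand. These starts lie inside the GENCODE spans given for the 4 genes, which reach to the outermost annotated transcript, and the one of Igsf8 lies far inside, in the last part of its span. They lie at chr2:165234738-165234987 on the minus strand for Cdh22, chr1:172312117-172312366 on the plus strand for Igsf8, chr1:120073781-120074030 on the minus strand for Tmem37 and chr8:122848124-122848373 on the plus strand for Cdh15. Capitals mark GGTCA, the core of a nuclear receptor half-site, GGGCGG, the GC box, and TATAAA, the TATA box, each on either strand.
Cdh22: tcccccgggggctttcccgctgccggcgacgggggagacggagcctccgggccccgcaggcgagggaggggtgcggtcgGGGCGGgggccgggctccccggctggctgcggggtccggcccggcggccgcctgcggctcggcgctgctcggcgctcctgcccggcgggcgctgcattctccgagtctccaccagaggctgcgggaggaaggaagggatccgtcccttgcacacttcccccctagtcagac
Igsf8: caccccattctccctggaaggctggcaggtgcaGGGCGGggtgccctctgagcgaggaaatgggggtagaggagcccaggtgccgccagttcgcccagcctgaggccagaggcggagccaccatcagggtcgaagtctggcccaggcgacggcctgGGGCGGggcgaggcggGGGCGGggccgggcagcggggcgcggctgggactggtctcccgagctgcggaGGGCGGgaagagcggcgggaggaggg
Tmem37: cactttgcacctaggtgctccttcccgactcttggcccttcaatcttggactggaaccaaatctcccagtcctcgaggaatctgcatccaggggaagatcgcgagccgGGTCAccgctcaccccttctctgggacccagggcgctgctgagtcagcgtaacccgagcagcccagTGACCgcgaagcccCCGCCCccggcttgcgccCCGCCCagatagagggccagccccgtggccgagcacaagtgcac
Cdh15: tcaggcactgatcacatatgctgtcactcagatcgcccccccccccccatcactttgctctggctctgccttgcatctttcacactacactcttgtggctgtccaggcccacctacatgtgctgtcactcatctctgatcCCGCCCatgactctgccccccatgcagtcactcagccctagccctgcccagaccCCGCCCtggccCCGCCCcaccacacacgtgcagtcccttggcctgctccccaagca

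Their GC content was 77.6% for Cdh22, 74.8% for Igsf8, 65.2% for Tmem37 and 62.0% for Cdh15. The median was 52.4% over 32851 promoters of the table, with 1 chromosome and entries of another length left out. The same 32851 give every share below. The number of CG dinucleotides was 30 for Cdh22, 21 for Igsf8 and 17 for Tmem37 but 5 for Cdh15, beside a median of 6. The 3 called genes thus had GC-rich, CG-rich promoters, and Cdh15 was GC-rich without the CG dinucleotides. GGTCA occurred only in the Tmem37 sequence, 2 times, and 35.2% of the 32851 promoters hold it. GGGCGG occurred in all 4, once in Cdh22, 4 times in Igsf8, 2 times in Tmem37 and 3 times in Cdh15, and 32.7% of promoters hold it. TATAAA was in none of the 4 and in 12.4% of promoters. The E-box CANNTG, which reads alike on both strands and is not capitalised, was absent from Cdh22 and occurred 2 times in Igsf8, 1 time in Tmem37 and 3 times in Cdh15, and 66.2% of promoters hold it. No match overlapped another. A match describes the letters in this window and is not evidence of binding.

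The cadherins that WT control muscle expressed most did not share the direction of Cdh22. Cdh15, the M-cadherin of myoblasts and satellite cells, had 6.13, 4.71 and 5.88 FPKM in WT control muscle and 3.77 and 3.68 FPKM in the libraries labelled skmNrip1-/-. Both of the latter were below every WT control library. The means were 5.58 ± 0.756 FPKM (SD, n = 3) and 3.72 ± 0.0575 FPKM (SD, n = 2), and the log2 difference was -0.56 (SE 0.15), not called. The estimate in fragments was 892, 755 and 858 in WT control muscle and 446 and 520 in the others. Cdh15 (ENSMUSG00000031962, chromosome 8, plus strand, 122847966 to 122867397) lies inside the annotated readthrough gene Gm20388, whose value was 0.932 FPKM in replicate 1 labelled skmNrip1-/- and 0 in the other 4 libraries.

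Cdh13, the T-cadherin, is attached to the membrane by a lipid anchor and binds adiponectin. It was the most abundant of the 10 genes in WT control muscle, at 41.2, 38.4 and 45.6 FPKM, and had 36.3 and 31.7 FPKM in the libraries labelled skmNrip1-/-. The means were 41.7 ± 3.64 FPKM (SD, n = 3) and 34.0 ± 3.26 FPKM (SD, n = 2). The log2 difference was -0.29 (SE 0.12), also without overlap and not called. The gene spans 118283733 to 119324921 on the plus strand of chromosome 8 (ENSMUSG00000031841).

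Ncam1, the neural cell adhesion molecule, is known to reappear along muscle fibres that lose their nerve. Its FPKM were 4.60, 1.33 and 1.90 in WT control muscle and 4.35 and 14.2 in the libraries labelled skmNrip1-/-. The lower of the latter was below WT control replicate 1, and the libraries spanned 3.47-fold within WT control muscle and 3.26-fold within the other group. The log2 difference of 1.75 (SE 0.63) was as large as that of Igsf8 but had a larger SE and was not called. The means were 2.61 ± 1.75 FPKM (SD, n = 3) and 9.27 ± 6.96 FPKM (SD, n = 2). Leaving out 1 library at a time moved the log2 difference between 0.91 and 2.59. Ncam1 lies on the minus strand of chromosome 9, 49502136 to 49798925 (ENSMUSG00000039542).

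Jam2 and Jam3 encode junctional adhesion molecules, immunoglobulin superfamily proteins known from endothelial junctions. Jam2 had 9.83, 12.8 and 8.87 FPKM in WT control muscle and 9.9996 and 12.01 FPKM in the libraries labelled skmNrip1-/-, both within the WT control range. Its means were 10.5 ± 2.03 FPKM (SD, n = 3) and 11.003 ± 1.42 FPKM (SD, n = 2), and its log2 difference of 0.08 (SE 0.18) changed sign in 4 of 10 alternative settings. Jam3 had 5.41, 5.03 and 4.45 FPKM against 5.89 and 6.51 FPKM, with means of 4.96 ± 0.485 FPKM (SD, n = 3) and 6.20 ± 0.434 FPKM (SD, n = 2). Its libraries did not overlap, but the log2 difference was 0.32 (SE 0.13), not called, and 0.02 when the values were rescaled to TPM, in which every library has the same sum. Jam2 (ENSMUSG00000053062) lies on the plus strand of chromosome 16, 84774123 to 84825928, and Jam3 (ENSMUSG00000031990) on the minus strand of chromosome 9, 27097384 to 27155421.

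The order of the 10 genes by mean FPKM differed between the groups. In WT control muscle, it ran from Cdh13 over Jam2, Tmem37, Cdh15, Jam3, Igsf8, Ncam1 and Clmp to Cdh22 and Tmprss13. The library ranges of Jam2 and Tmem37 overlapped, as did those of each neighbouring pair from Cdh15 to Ncam1. In the libraries labelled skmNrip1-/-, the order was Tmem37, Cdh13, Igsf8, Jam2, Tmprss13, Ncam1, Jam3, Clmp, Cdh15 and Cdh22. Here the range of Ncam1 overlapped those of its neighbours Tmprss13 and Jam3, and the other neighbouring pairs were separate. Tmprss13 moved from place 10 to place 5, next to Jam2.

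Rescaling to TPM moved the median log2 difference of all tested genes to -0.29. On that scale the log2 differences were 5.72 for Tmprss13, 3.26 for Cdh22, 2.43 for Clmp, 1.73 for Tmem37 and 1.445 for Igsf8, so all 5 kept their direction, and 5 of the 10 genes were called higher. Over the whole table, TPM gave 30 genes higher and 63 lower, in place of 45 and 10. Of the 10 genes, Jam2 was the 1 whose sign turned, to -0.22.

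Genes related to the 10 by family or function were taken from 9 lists. Of 161 genes, 130 were in the table and 79 passed the filter on mean FPKM. By limma with Benjamini-Hochberg adjustment over the whole table, 0 of the 79 were called in either direction, and at an unadjusted p of 0.05 or less 2 were higher and 10 lower, where 6.57% of all tested genes were higher and 5.33% lower at that p. Their median log2 difference was -0.08, 29 were above 0, and the libraries were separated upward for 7 and downward for 18, beside 15.8% and 14.4% of all tested genes. Nothing particular to these lists is read from that.

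**Figure D3:**
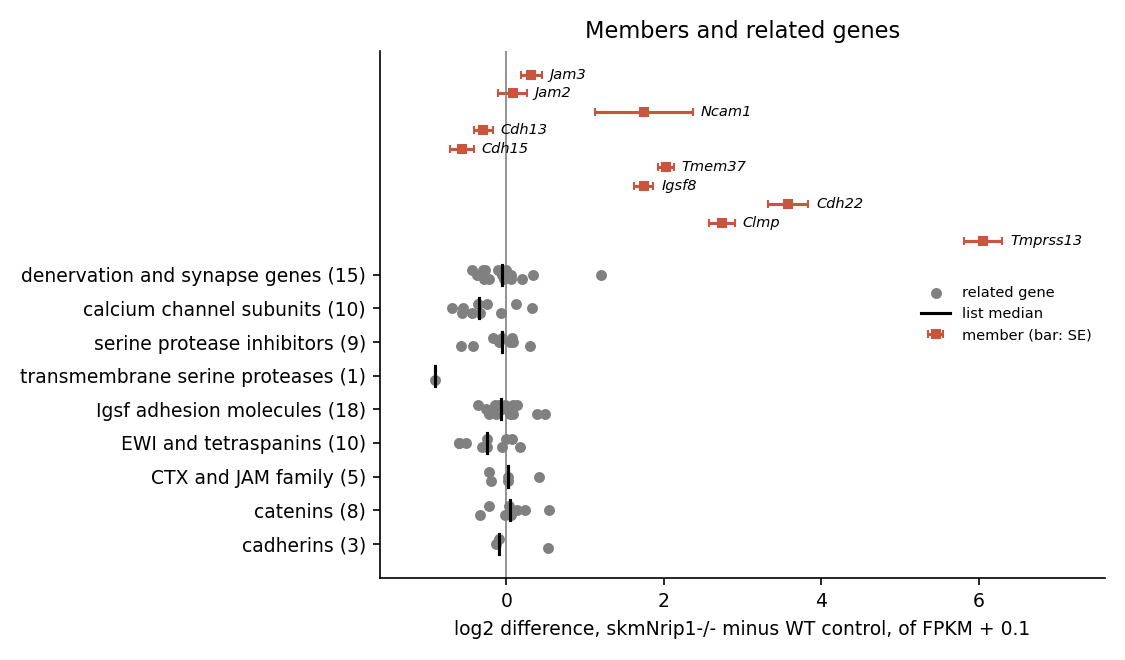
Log2 differences of FPKM + 0.1, skmNrip1-/- minus WT control, on the horizontal axis. Squares are the 10 genes with bars for the SE, grey points the tested genes of 9 related lists with the number tested in brackets, and black bars the list medians. The 79 related genes lie at 1.2 or less, while Tmprss13, Cdh22, Clmp, Tmem37 and Igsf8 lie at 1.74 or more. These named genes were chosen with their differences known, so nothing is read from the gap.

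Among other cadherins, 13 of 20 listed genes were in the table and 3 were tested, with a median log2 difference of -0.10. Cdh5, the VE-cadherin of endothelium, had the lowest difference, with 23.7, 26.5 and 24.1 FPKM in WT control muscle and 20.9 and 24.6 FPKM in the libraries labelled skmNrip1-/- (log2 difference -0.13, SE 0.12, limma adjusted p = 0.75). Cdh4 had the highest, 0.53 (SE 0.59, limma adjusted p = 0.797), with 1.12, 0.374 and 0.198 FPKM against 0.855 and 0.578. Its libraries overlapped. Cdh2, the N-cadherin, stayed under the filter at 0.364 to 0.405 FPKM in WT control muscle and 0.450 and 0.555 in the others. Of the catenins, 8 of 10 were tested, with a median of 0.04 that became -0.25 under TPM. Ctnna3 was highest at 0.55 (SE 0.16, limma adjusted p = 0.264) and Arvcf lowest at -0.33 (SE 0.12, limma adjusted p = 0.356), and neither was called.

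In the CTX and JAM group around Clmp, 5 of 13 genes were tested and the median was 0.02, which became -0.27 under TPM. Vsig10l had the highest log2 difference, 0.41 (SE 0.30, limma adjusted p = 0.659), and Vsig2 the lowest, -0.22 (SE 0.23, limma adjusted p = 0.785). Cxadr, the coxsackievirus and adenovirus receptor, was low in every library, at 0.105 to 0.202 FPKM in WT control muscle and 0.148 and 0.248 in the others. Among the EWI family and the tetraspanins, 10 of 12 genes were tested with a median of -0.24. Cd9 and Cd81, the partners of Igsf8, had log2 differences of 0.00 (SE 0.12) and -0.06 (SE 0.11) with overlapping libraries. The highest was Ptgfrn, also named EWI-F, at 0.17 (SE 0.23, limma adjusted p = 0.835), and the lowest was Cd37 at -0.60 (SE 0.36, limma adjusted p = 0.594). Of 39 further immunoglobulin superfamily adhesion molecules, 18 were tested with a median of -0.07, from Pvr at -0.36 (SE 0.17, limma adjusted p = 0.493) to L1cam at 0.49 (SE 0.49, limma adjusted p = 0.77).

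Transmembrane serine proteases other than Tmprss13 were mostly low in TA. Of 19 listed, 9 were in the table and 1 was tested. This was Hpn, hepsin, with 4.97, 4.53 and 5.09 FPKM in WT control muscle and 2.82 and 2.31 FPKM in the libraries labelled skmNrip1-/-, a log2 difference of -0.90 (SE 0.14, limma adjusted p = 0.08) and thus not called. Tmprss4 lay at 0 to 0.0309 FPKM against 0.0964 and 0.0551. Of 10 listed genes of the Kunitz inhibitor and serpin families, 9 were tested with a median of -0.05. These were listed by family, not by the protease they act on. Spint2, a Kunitz-type inhibitor of membrane serine proteases, had the lowest difference, -0.58 (SE 0.15, limma adjusted p = 0.244). The serpin family member Serpinf1 had the highest, 0.30 (SE 0.30, limma adjusted p = 0.765).

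Voltage-gated calcium channel subunits were listed beside Tmem37. Of 20, 10 were tested, 0 were called, and the median was -0.35. Cacna1s, the pore subunit of skeletal muscle, had 216 to 229 FPKM in WT control muscle and 203 and 226 in the others (log2 difference -0.06, SE 0.11). Cacng1, its gamma subunit and a relative of Tmem37, had 211, 127 and 150 FPKM against 103 and 114, a log2 difference of -0.55 (SE 0.21, limma adjusted p = 0.383). The lowest was Cacnb3 at -0.69 (SE 0.36, limma adjusted p = 0.524) and the highest Cacna1c at 0.33 (SE 0.28, limma adjusted p = 0.718).

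Genes of denervation and of the neuromuscular synapse were listed beside Ncam1. Of 18, 15 were tested and the median was -0.06. Musk, the receptor kinase of the synapse, had the highest log2 difference of the 79 related genes, with 1.09, 1.49 and 1.76 FPKM in WT control muscle and 3.49 and 3.30 FPKM in the libraries labelled skmNrip1-/- (1.2, SE 0.22, limma adjusted p = 0.11). It was not called, though the libraries did not overlap. Myog, a myogenic factor known to rise in denervated muscle, was lowest at -0.43 (SE 0.24, limma adjusted p = 0.557). Chrng, the gamma subunit of the fetal acetylcholine receptor, stayed under the filter, at 0.0163 to 0.0410 FPKM against 0.193 and 0.301.

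Marker lists of other cell types were summed to set beside these genes, and 0 markers of any list were called. For epithelium, the tissue where Tmprss13 and Clmp are best known, 7 of 11 markers were in the table. They summed to 4.66 to 6.17 FPKM in WT control muscle and 4.98 to 5.73 in the libraries labelled skmNrip1-/-, and Epcam lay at 0.116 FPKM or less in WT control muscle and at 0.122 or less in the others. The ranges of these sums overlapped between the groups, and the part of epithelial cells in the Tmprss13 values was not tested. Satellite cell markers, set beside Cdh15 and Ncam1, summed to 56.2 to 57.0 against 48.2 to 49.8 FPKM, with Itga7 the most abundant (log2 difference -0.53, SE 0.10, limma adjusted p = 0.129). The list did not move one way. Of 8 tested markers, 4 were above 0, with libraries separated upward for 3 (Chrdl2 at 1.14, Cxcr4 at 0.46 and Sdc4 at 0.37) and downward for 2, while Pax7, under the filter, lay at 0.383 to 0.386 against 0.237 and 0.314 FPKM. The part of this lower sum in the lower Cdh15 was not tested. Endothelial markers, set beside Cdh13, Jam2 and Jam3, summed to 126 to 141 against 119 to 122 FPKM, and their part in the lower Cdh13 was likewise not tested. Schwann cell markers summed to 28.02 to 41.5 against 25.2 to 35.0 FPKM, and neuron markers to 0.916 to 1.11 against 0.967 to 1.66 FPKM.

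The sums of fibroblast markers (215 to 284 against 243 to 299 FPKM), pericyte and smooth muscle markers (184 to 207 against 187 to 197), macrophage and leukocyte markers (18.6 to 34.0 against 22.02 to 27.9) and adipocyte markers (133 to 202 against 158 to 163) overlapped between the groups. Slow and cardiac muscle markers summed to 25.6 to 32.7 FPKM in WT control muscle and 52.5 to 68.3 FPKM in the libraries labelled skmNrip1-/-. That difference came from 1 gene, Myl2, at 2.03, 1.85 and 9.68 against 42.1 and 33.6 FPKM (log2 difference 3.46, SE 0.67, limma adjusted p = 0.127). Of 7 tested markers of this list, 3 were above 0, the median log2 difference was -0.01, and libraries were separated upward for 1 and downward for 1. The part of this difference in the values of the 5 called genes was not tested.

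Genes near the 10 were examined because position was not used to choose them. Within 500 kb, 100 tested genes lay beside the 10, and 0 were called by limma in either direction. At an unadjusted p of 0.05 or less, 11 were higher and 5 lower, beside 6.57% and 5.33% of all tested genes. The libraries were separated upward for 16 of the 100 and downward for 12, beside 15.8% and 14.4% of all tested genes. Around Tmem37, all 7 tested neighbours had log2 differences above 0, with a median of 0.40, and 5 were separated upward. The nearest before it was Sctr, the secretin receptor, 3.84 kb away, with 2.06, 1.19 and 2.02 FPKM in WT control muscle and 3.08 and 3.39 in the others (0.88, SE 0.25, limma adjusted p = 0.266). The nearest after it was Dbi, 39.2 kb away, at 0.17 (SE 0.15, limma adjusted p = 0.746).

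Around Tmprss13, 4 of 10 tested neighbours were separated upward and 1 downward. The nearest were Fxyd6, a regulator of the sodium pump 22.6 kb after it, with 28.9, 31.7 and 29.4 FPKM against 57.4 and 44.4 (0.75, SE 0.14, limma adjusted p = 0.11), and BC049352, 69.1 kb before it, with 2.63, 2.58 and 1.80 FPKM against 5.38 and 4.999 (1.14, SE 0.19, limma adjusted p = 0.0953). Both were smaller than the difference of Tmprss13 itself, which was chosen with its value known. Clmp had 4 tested neighbours, all above 0, with Hspa8 15.7 kb after it at 0.36 (SE 0.13, limma adjusted p = 0.344) and Gramd1b 155 kb before it at 0.70 (SE 0.19, limma adjusted p = 0.248). Around Cdh22 the 19 tested neighbours had a median of -0.18, and the nearest, Slc35c2 and Ncoa5, had log2 differences of -0.20 (SE 0.17, limma adjusted p = 0.721) and 0.01 (SE 0.17, limma adjusted p = 0.994). Around Igsf8 the 11 tested neighbours had a median of -0.09, with Casq1, the calcium-binding protein of the sarcoplasmic reticulum, 41.8 kb before it at -0.48 (SE 0.17, limma adjusted p = 0.34) and Pigm 56.7 kb after it at -0.01 (SE 0.21, limma adjusted p = 0.991). Of the 10 genes, 4 lie on chromosome 9, and these are Tmprss13, Clmp, Ncam1 and Jam3.

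**Figure D4:**
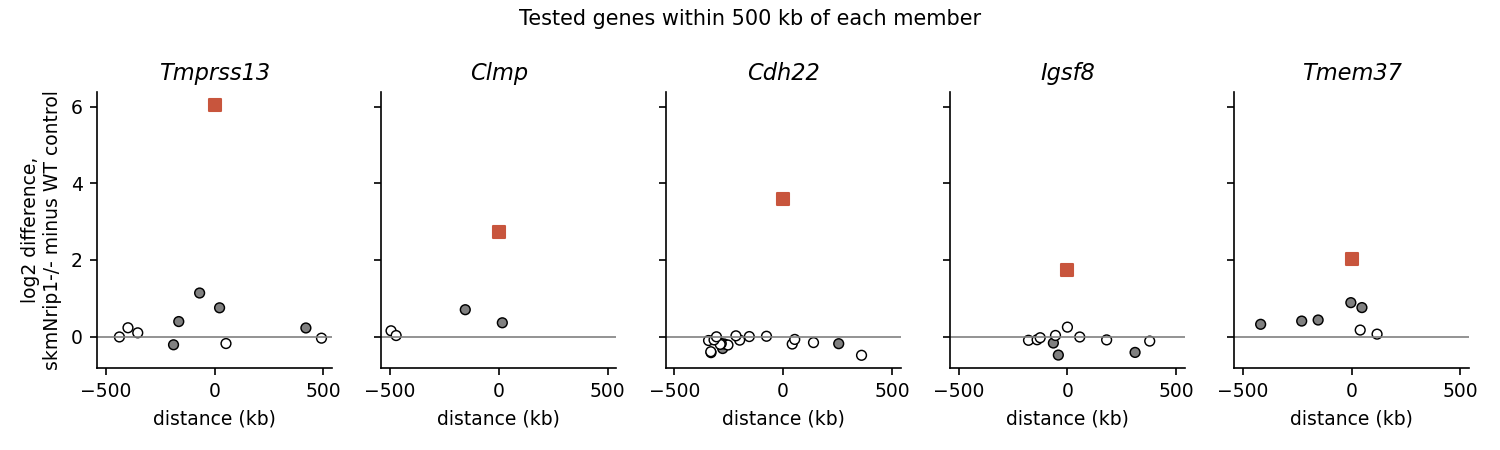
Log2 difference, skmNrip1-/- minus WT control, of the tested genes within 500 kb of each called gene against their distance in kb, with negative distances towards the start of the chromosome. Red squares are the gene itself, filled circles neighbours whose libraries do not overlap and open circles the others. The median of the neighbours is 0.40 around Tmem37 and -0.18 around Cdh22. The called genes were chosen with their differences known, so nothing is read from their height above the neighbours.

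For each called gene, the tested genes with the nearest profile were found by the root mean square distance over the 5 libraries of log2(FPKM + 0.1), centred on the WT control mean. This is a description of size and spread in the same comparison. Nearest to Tmprss13 were Kcnk1, a potassium channel (distance 0.35), Ptgds, prostaglandin D synthase (0.53), and Pgam1-ps2 (0.97). Kcnk1 went from a mean of 0.358 to 30.1 FPKM, more abundant than Tmprss13 in both groups. Nearest to Clmp were Nacad (0.17), Chrna4, a neuronal acetylcholine receptor subunit (0.33), and Tecta (0.37). Nearest to Cdh22 were Nacad (0.46), Clmp (0.54) and Cabcoco1 (0.61). Nearest to Igsf8 were Slc38a10 (0.12), Cds1 (0.12) and Khdrbs3 (0.14), and nearest to Tmem37 were Fabp3, the fatty acid-binding protein of heart and muscle (0.10), Ackr3 (0.13) and Ptp4a1 (0.18). Fabp3 differed by 1.92 on the log2 scale beside 2.02 for Tmem37.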

How the data were processed

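TA muscle RNA was sequenced by the study in 2 × 150-bp paired-end runs from NEBNext Ultra libraries. The authors quantified reads with Salmon 1.10.2 on mm10, summarized them with tximport, and deposited FPKM per gene and library. The FPKM calculation, annotation release and strand setting are not given in the sources used here. The deposited log2 fold changes and adjusted p-values from DESeq2 1.44.0 are 2 columns of the authors' own comparison and were not used. Because the deposited FPKM are not counts, the main test was limma 3.58.1 (R 4.3.3; lmFit, eBayes with intensity trend) on log2(FPKM + 0.1) over the 12148 genes with a mean of 0.5 FPKM or more, with Benjamini-Hochberg adjustment and all 5 libraries in 1 fit without covariates. P-values set each group difference against the spread between these mice, with each gene's variance drawn towards that of genes of similar level. A two-sided exact permutation test of 2 libraries against 3 allows 10 splits and no p below 0.1. GENCODE M21 (GRCm38) gave positions and 16996 of 17015 IDs matched. Python 3.11.15, pandas 2.3.3 and numpy 2.4.6 were used for tables. The fit was tested on simulated data.

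The 10 genes and the gene lists were chosen with earlier results of these data known. The named genes were the 10, the highest and lowest tested gene of each related list, the most abundant and called markers, the 3 nearest profiles, the nearest tested neighbour on each side, and Nrip1. Other genes named (Cdh2, Cxadr, Cd9, Cd81, Tmprss4, Cacna1s, Cacng1, Chrng, Epcam, Pax7, Myl2 and Gm20388 among them) were chosen after their values were seen. A few genes covered by these choices are left unreported. The settings varied were the pseudocount (1 or 0.01), the minimum mean (none or 1 FPKM), TPM, median-of-ratios scaling, eBayes without trend or robust, the replicate block, other thresholds, and each library left out. The alternatives for the counts of neighbouring genes and of called genes among the 10 were added after seeing the data.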

Additional observations from a re-analysis of the deposited data

How the results depend on the processing

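The 5 genes called higher kept their direction in all 10 alternatives. Pseudocounts of 1 and 0.01 and TPM moved the log2 difference of Tmprss13 between 3.32 and 7.49, of Cdh22 between 1.74 and 4.19 and of Clmp between 1.90 and 2.88. Leaving out either library labelled skmNrip1-/- left 3 of the 5 called, Tmprss13, Clmp and Tmem37, and lost Cdh22 and Igsf8. Since these genes were chosen from the same values, neither their direction nor their calls measure stability. The lone library is then assumed to vary like the WT control group. Of all tested genes, the 45 called higher became 22 without the eBayes trend, 18 with the replicate block and 14 at an adjusted p of 0.01. Leaving out 1 library gave 6 to 55, with 27 and 19 without WT control replicates 1 and 3 and 8 and 6 without skmNrip1-/- replicates 1 and 2. The 10 called lower became 63 under TPM, 3 without the trend, 4 with the replicate block, 3 at an adjusted p of 0.01, and 3 to 16 when 1 library was left out (16 without WT control replicate 2, and 3 without WT control replicate 1 or 3 or skmNrip1-/- replicate 2). Related genes called lower went from 0 to 3 under TPM (Hpn, Cacnb1 and Serpinb6a), and neighbouring genes from 0 to 1 (Wfdc1, near Cdh13). The 2 silent-to-expressed genes became 11 with silence below 0.5 FPKM, 4 with silence below 0.2 FPKM, 6 with expression from 0.5 FPKM, and 3 to 4 when 1 library was left out, 4 without WT control replicate 3 and 4 without skmNrip1-/- replicate 2. The cause was not tested for any of these changes. Replicate numbers are shared by the groups in the labels but name different mice. The deviations of same-numbered libraries correlated at 0.065 and 0.095, so the block is given here only. The 2 deviations labelled skmNrip1-/- mirror each other, so these correlations are not independent. WT control replicate 3 has no partner, and the block gave each of the 10 genes the same log2 difference as leaving that library out. These settings are thus not separate alternatives, also in the sign changes counted for Jam2. The Tmprss13 values in WT control muscle rest on few fragments, about 4 in the lowest library.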

Other observations

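With silence set below 0.5 FPKM in all WT control libraries, a limit at which Cdh22 joins Tmprss13, 9 further genes of the table reached 1 FPKM in both libraries labelled skmNrip1-/-. By ratio of means they include Ptgds (0.242, 0.164 and 0.175 against 16.8 and 43.3 FPKM), Kcnk1 (0.232, 0.441 and 0.402 against 33.8 and 26.5 FPKM), Cabcoco1 (40.1-fold), Nacad (9.87-fold), Chrna4 (8.23-fold), Pcnx2 (5.64-fold) and Cidea, a lipid droplet protein (3.61-fold), beside Pgam1-ps2, which was listed at 0 in every WT control library and at 3.56 and 1.58 FPKM in the others. Among these 11 genes, Tmprss13 had the highest ratio of means of those with a value above 0 in WT control muscle. On the log2(FPKM + 0.1) scale, Ptgds (6.54) and Kcnk1 (6.06) had larger differences than Tmprss13 (6.05). Tmprss13 was chosen with its values known, so nothing is read from its rank.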
